A study of Mus musculus with 6 samples.

Results

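The genes described here encode interleukins, their receptors and a few proteins that share the name. They were taken from the mRNA table of RNA sequenced from mouse thymus as every gene whose symbol begins with Il and a digit, leaving out 12 named genes (Il7, Il7r, Il2rg, Il15, Il6, Il6ra, Il6st, Il11ra1, Il2ra, Il25, Il1b and Il18). The rule gave 72 gene identifiers out of 21954, under 70 symbols, because Il11ra2 has 3 identifiers. The rule used names only, and no measured value. All animals were C57BL wild-type mice aged 5 weeks. One group of 3 was not irradiated (control), and the other group of 3 received 6 Gy of X-rays and was killed 24 h later (irradiated). Polyadenylated RNA from frozen thymus tissue was sequenced as 1 library per sample, and n = 3 in each group throughout. The labels name 3 mice in each group but do not say which library came from which mouse, so the p-values reflect only the variation among these 6 samples.

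Interleukins are secreted proteins through which leukocytes and stromal cells signal to each other. A receptor usually pairs a chain that binds the ligand with a chain shared by several receptors, and signals through adaptors of the MyD88 and IRAK kind (the IL-1 family), through Janus kinases and STAT proteins (most others) or through the adaptor Act1 (the IL-17 family). Decoy receptors and soluble antagonists bind ligand or receptor without signalling. In the thymus, several of these genes are used by developing thymocytes, while others belong to macrophages, epithelial cells, fibroblasts or innate lymphocytes.

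Abundance was read as FPKM, fragments scaled for transcript length and library depth, a unit in which levels of different genes can be compared. The libraries held an estimated 22600000 to 26000000 fragments, and 3 fragments in a transcript of 1 kb correspond to 0.115 to 0.133 FPKM, so a gene listed at 0 may lie anywhere below that level. On the first principal component, which held 83.7% of the variance, the controls lay between -102.3 and -95.8 and the irradiated libraries at 54.4, 134.1 and 107.8, with irradiated replicate 1 nearest to the controls. The 7 thymocyte markers checked summed to 1644 to 1935 FPKM in the controls, which fits the labelled tissue, and to 142.5 to 216.1 FPKM after irradiation, with 7 of 7 lower. Over the same comparison, 7 of 7 macrophage markers (100.5 to 129.5 against 680.2 to 886.5 FPKM), 6 of 6 fibroblast markers (46.8 to 56.2 against 318.5 to 411.0 FPKM) and 5 of 6 thymic epithelial markers (96.6 to 121.5 against 323.4 to 798.2 FPKM) were higher. Markers of airway epithelium summed to 3310 FPKM in irradiated replicate 2, against 46.4 and 47.2 FPKM in the other irradiated libraries and 3.17 to 4.48 FPKM in the controls. Fat cell markers (16.2 to 36.5 FPKM in the controls against 72.35, 1356 and 583.6 FPKM in irradiated replicates 1, 2 and 3, with 4 of 4 tested higher), endothelial markers (3.98 to 4.75 against 19.8, 67.7 and 69.9 FPKM, 6 of 6 higher) and skeletal muscle markers (5.95 to 6.46 against 4.30, 136.6 and 27.9 FPKM, 4 of 6 higher) were also lowest among the irradiated libraries in replicate 1. Of 7 neutrophil markers 3 were higher (42.9%), namely Csf3r (0.697, 0.478 and 0.834 against 4.29, 31.4 and 26.9 FPKM), Cxcr2 and Retnlg. The neutrophil sum, mostly S100a8 and S100a9, which did not pass, was at 43.1 to 112.9 against 41.5, 384.2 and 155.8 FPKM. Among all genes tested as described below, 42.4% were higher and 20.9% lower, so the neutrophil share was near that background. Tek, Flt1 and Emcn (endothelium), Acta1, Ckm, Myh1 and Myh4 (muscle) and Cxcr2 averaged under 0.5 FPKM in the controls. They reached the minimum for testing only through the irradiated libraries and could hardly have been called lower. Like the sums of fat, endothelial and muscle markers, Il33, Il1rn, Il1f9 and Il12b, described below, were lowest among the irradiated libraries in replicate 1. In bulk tissue, fewer cells of a type and less RNA per cell cannot be told apart, and the part of these marker changes in the results below was not tested.

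More of the interleukin and receptor genes were higher than lower after irradiation. Of the 72 genes, 45 averaged at least 0.5 FPKM over the 6 libraries and were tested with limma on log2(FPKM + 0.1), which understates the change of genes at low levels. At an adjusted p under 0.05, with Benjamini-Hochberg adjustment over all 14001 tested genes, 26 were higher and 5 were lower, while 14 did not pass. Among all tested genes 42.4% were higher and 20.9% lower, so the higher count stood above that background and the lower count below it. The median log2 fold change (irradiated minus control) was 1.43 over the tested genes described here and 0.40 over all tested genes. The 2 groups did not overlap, with the irradiated libraries above, in 27 of the 45, against 46.1% of all tested genes, and with the irradiated libraries below in 6, against 24.7%. In addition, 10 of the tested genes averaged under 0.5 FPKM in 1 group and passed the filter through the other, and 6 of those were higher. The remaining 35 gave 20 higher and 5 lower, against 37.2% and 23.2% of all genes with both group means at that level. The split between higher and lower depended on the scaling between libraries. With quantile normalization it was 13 higher and 10 lower, against 25.0% and 31.4% of all genes, and the median of all genes moved from 0.40 to -0.07. With median-ratio scaling it was 23 and 8, against 33.2% and 32.6%, and the median of all genes was 0.02.

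**Figure D1:**
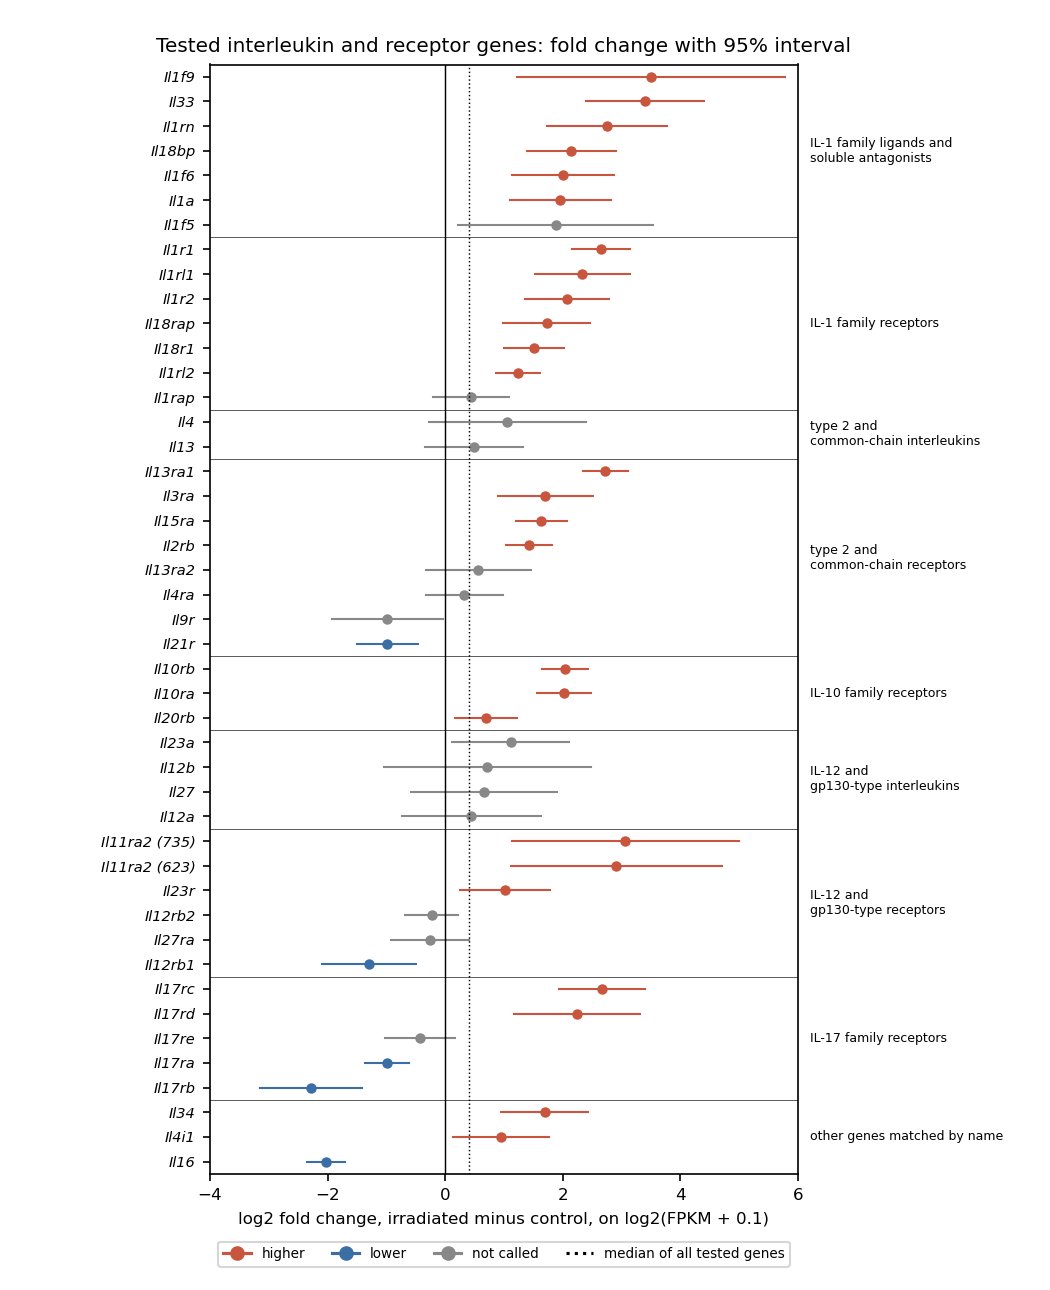
Log2 fold change (irradiated minus control, on log2(FPKM + 0.1)) of the 45 tested genes with its 95% interval, grouped by role; red points were higher, blue points lower and grey points did not pass adjusted p under 0.05. The dotted line is the median of all 14001 tested genes, 0.40, and the points of the IL-1 family lie to its right.

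Receptors and ligands differed in how many could be read at all. Of 37 receptor genes 29 were tested, with 18 higher, 4 lower and 7 not passing. Of 32 genes for ligands and soluble antagonists 13 were tested, with 6 higher, none lower and 7 not passing, and all 6 belonged to the IL-1 family. The share of higher genes was 62.1% among the tested receptors and 46.2% among the tested ligands and antagonists. Among all tested genes 42.4% were higher and 20.9% lower, so the ligand share was near the background. Of the genes called higher, the receptors Il1rl1, Il17rd and the called copies of Il11ra2 averaged under 0.5 FPKM in the controls. So did the ligands Il1f6 and Il1f9. These genes passed the filter through the irradiated libraries and could hardly have been called lower, which raises both shares. The ligand genes Il3, Il20 and Il31 were listed at 0 in all 6 libraries.

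Upstream sequence is shown for 2 genes that rose and 2 that fell, because all 4 carry the same AP-1 letters within the 250 bases before a RefSeq gene start (mouse build GRCm38.p6). AP-1 is a dimer of Fos and Jun proteins that binds the letters TGANTCA, here in capitals, and both strands were searched. Each sequence is on the gene's own strand, 5′ to 3′, at chr2:24336610-24336859 (plus strand) for Il1rn, chr2:129309973-129310222 (minus strand) for Il1a, chr7:83735540-83735789 (minus strand) for Il16 and chr14:30008897-30009146 (minus strand) for Il17rb.
Il1rn: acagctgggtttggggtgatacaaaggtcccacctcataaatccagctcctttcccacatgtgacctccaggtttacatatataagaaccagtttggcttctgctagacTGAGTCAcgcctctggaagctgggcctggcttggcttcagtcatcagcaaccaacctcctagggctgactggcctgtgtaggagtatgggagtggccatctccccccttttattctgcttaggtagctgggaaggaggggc
Il1a: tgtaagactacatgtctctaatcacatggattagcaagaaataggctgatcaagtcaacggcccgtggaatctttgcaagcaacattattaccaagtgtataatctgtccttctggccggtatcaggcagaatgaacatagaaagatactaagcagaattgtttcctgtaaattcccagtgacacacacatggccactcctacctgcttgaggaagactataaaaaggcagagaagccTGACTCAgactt
Il16: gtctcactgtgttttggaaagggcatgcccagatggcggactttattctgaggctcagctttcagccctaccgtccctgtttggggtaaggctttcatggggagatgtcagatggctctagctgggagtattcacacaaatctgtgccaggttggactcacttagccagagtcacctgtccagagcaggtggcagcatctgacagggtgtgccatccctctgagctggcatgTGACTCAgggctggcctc
Il17rb: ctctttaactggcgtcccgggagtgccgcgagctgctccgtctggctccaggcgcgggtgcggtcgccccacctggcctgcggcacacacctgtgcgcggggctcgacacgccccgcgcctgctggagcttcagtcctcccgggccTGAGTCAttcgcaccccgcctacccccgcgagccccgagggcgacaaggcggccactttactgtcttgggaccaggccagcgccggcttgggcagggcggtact
The match begins 141 bases before the start in Il1rn, 12 in Il1a, 18 in Il16 and 104 in Il17rb. For Il1rn and Il16 this is 1 of 3 windows of the gene, and for the other 2 genes it is the only window. A window was found for 56 symbols, and 13 of them (23.2%) held the AP-1 letters, against 7.82% of 27025 genes with a window. Of the 13, 3 were higher (Il1rn, Il1a and Il15ra), 2 were lower (Il16 and Il17rb), 1 did not pass and 7 were not tested. The NF-kB letters (GGG, any 2 bases, then TTTCC) were in 5 symbols (8.93%, against 1.65% of all genes). Of these, 3 were higher, 1 was lower and 1 was not tested. The STAT letters TTCNNNGAA were in 7 symbols (12.5%, against 8.13%). Of these, 3 were higher, none was lower, 2 did not pass and 2 were not tested. Among all tested genes 42.4% were higher and 20.9% lower, and the counts for each motif are too small to read as a direction. A match of letters does not show that a factor binds there.

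Of the IL-1 family ligands and antagonists, 6 of 7 tested genes were higher and none was lower, beside 42.4% higher and 20.9% lower of all tested genes. Il1f5, Il1f6 and Il1f9 passed the filter only through the irradiated libraries and so could hardly have been called lower. Il33, Il1rn, Il18bp and Il1a averaged at least 0.5 FPKM in both groups, and all 4 were higher. Il33 (IL-33, an alarmin kept in the nucleus of stromal cells and released on damage) was at 1.09, 0.909 and 1.37 FPKM in control replicates 1, 2 and 3 and at 6.64, 13.4 and 22.7 FPKM in irradiated replicates 1, 2 and 3. All 3 irradiated libraries lay above all controls, and the mean rose from 1.12 ± 0.233 to 14.2 ± 8.06 FPKM (SD, n = 3), which is 3.40 ± 0.43 (SE) on the log2 scale with limma adjusted p = 0.00059. Il1a (IL-1 alpha, which activates the IL-1 receptor) was at 0.732, 0.961 and 0.888 FPKM in the controls and at 4.20, 2.11 and 5.29 FPKM after irradiation. Its groups did not overlap, with a log2 fold change of 1.96 ± 0.36 and adjusted p = 0.00298. Of the genes for IL-36 cytokines, epithelial members of the family, Il1f6 (IL-36 alpha) was at 0.250, 0.343 and 0.186 FPKM in the controls and at 1.62, 1.05 and 1.34 FPKM after irradiation, which gave 2.0 ± 0.37 on the log2 scale (adjusted p = 0.00281). Il1f9 (IL-36 gamma) was at 0.285, 0.118 and 0.0401 FPKM in the controls, and at 0.425, 5.00 and 6.30 FPKM in the irradiated libraries. Irradiated replicate 1 was thus far below the other irradiated libraries for Il1f9, although above all controls. Its log2 fold change was 3.50 ± 0.97 (adjusted p = 0.0164), and it no longer passed when control replicate 3 (adjusted p = 0.0602), irradiated replicate 2 (0.0528) or irradiated replicate 3 (0.0585) was left out. Il1f8 (IL-36 beta, 0.0595 against 0.162 FPKM) and Il1f10 (IL-38, 0.0279 against 0.0325 FPKM) were under the filter. The calls of Il1a, Il1f6 and Il1f9 were lost with quantile normalization, where their log2 fold changes were 0.71, 0.32 and 2.23.

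Of the soluble antagonists, Il1rn and Il18bp rose alongside the agonists. Il1rn (the IL-1 receptor antagonist, which occupies the receptor without signalling) was at 1.03, 1.99 and 1.57 FPKM in the controls and at 5.49, 13.5 and 16.0 FPKM after irradiation. Each irradiated library exceeded every control, and the log2 fold change was 2.76 ± 0.43 (adjusted p = 0.00144). Il18bp (IL-18 binding protein, a secreted trap for IL-18) went from 3.67, 3.92 and 4.40 FPKM to 12.1, 16.1 and 29.9 FPKM, with 2.15 ± 0.32 on the log2 scale and adjusted p = 0.00115. Its groups did not overlap either, and irradiated replicate 3 was the highest. Il1f5 (the IL-36 receptor antagonist) was at 0.0506, 0.298 and 0.146 FPKM in the controls and at 0.654, 2.09 and 0.344 FPKM after irradiation. The groups did not overlap, but the gene did not pass (log2 fold change 1.88 ± 0.71, adjusted p = 0.0503). Without irradiated replicate 3 it passed, with a log2 fold change of 2.39 and adjusted p = 0.0301. Over the list of 7 decoys and antagonists, which adds Il1r2, Il13ra2, Il22ra2 and Il1f10 to these, 3 of 5 tested genes were higher and none was lower. Among all tested genes 42.4% were higher and 20.9% lower, and 5 genes are too few to set the list apart from that. The median log2 fold change of the tested genes on the list was 2.07.

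Of the receptors of the family, 6 of 7 tested genes were higher and none was lower, beside 42.4% higher and 20.9% lower of all tested genes. Of the 6 higher genes, Il1rl1 passed the filter only through the irradiated libraries. These 6 lie side by side on the plus strand of chromosome 1 (GRCm38, 40074079 to 40551705) in the order Il1r2, Il1r1, Il1rl2, Il1rl1, Il18r1 and Il18rap. Il1r1 (the signalling receptor for IL-1) was at 2.18, 1.67 and 1.64 FPKM in the controls and at 10.9, 10.5 and 14.9 FPKM after irradiation. The mean rose from 1.83 ± 0.303 to 12.1 ± 2.44 FPKM, with a log2 fold change of 2.65 ± 0.21 and adjusted p = 0.000113. Il1r2 (the decoy receptor for IL-1) was at 0.882, 1.61 and 1.36 FPKM in the controls and at 4.51, 7.58 and 5.01 FPKM after irradiation (2.07 ± 0.30, adjusted p = 0.00109). So the decoy rose with the signalling receptor, and the groups of neither gene overlapped.

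Il1rl1 (ST2, the receptor for IL-33) was the lowest of the 6 in the controls, at 0.163, 0.201 and 0.260 FPKM, and reached 1.47, 1.63 and 1.24 FPKM after irradiation. Its log2 fold change was 2.33 ± 0.34 with adjusted p = 0.00113. Il1rl2 (the IL-36 receptor) was at 3.47, 4.11 and 4.30 FPKM in the controls and at 9.61, 8.68 and 10.0 FPKM in the irradiated libraries. That was the smallest change of the 6, 1.24 ± 0.16 on the log2 scale (adjusted p = 0.000621), and the groups did not overlap. Il18r1 and Il18rap encode the 2 chains of the IL-18 receptor. Il18r1 was at 2.69, 3.23 and 2.0 FPKM in the controls and at 7.48, 8.33 and 7.02 FPKM after irradiation (1.51 ± 0.21, adjusted p = 0.000949), while Il18rap was at 0.844, 0.903 and 1.02 FPKM and at 2.45, 5.00 and 2.86 FPKM (1.73 ± 0.31, adjusted p = 0.0027). The groups of both chains were fully separated. With quantile normalization the calls of Il1rl1 (0.67) and Il18rap (0.52) were lost.

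The shared accessory chain Il1rap, which IL-1, IL-33 and IL-36 receptors all need, lies elsewhere and did not pass. It was at 2.98, 2.99 and 3.19 FPKM in the controls and at 2.78, 4.61 and 5.63 FPKM after irradiation (log2 fold change 0.44 ± 0.27, 95% interval -0.21 to 1.08, adjusted p = 0.198). Irradiated replicate 1 lay below all controls and the other irradiated libraries above them, and without that library the gene passed at 0.72 (adjusted p = 0.00798). With quantile normalization its value turned to -0.42. The neuronal members Il1rapl1 and Il1rapl2 were below 0.05 FPKM in all libraries. The ligand genes on chromosome 2 (24153161 to 24351494) also form a row of neighbours, Il1f8, Il1f9, Il1f6, Il1f5, Il1f10 and Il1rn, of which 3 were called higher, beside 42.4% of all tested genes. Among these 3, Il1f6 and Il1f9 passed the filter only through the irradiated libraries.

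**Figure D2:**
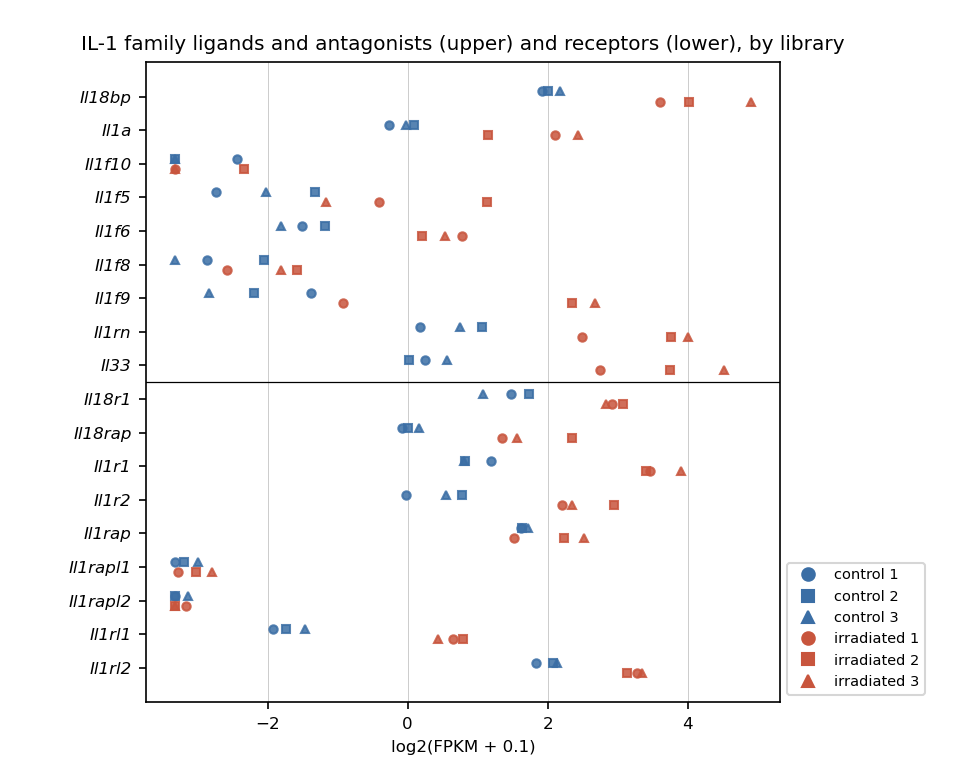
log2(FPKM + 0.1) of each IL-1 family gene in the 3 control (blue) and 3 irradiated (red) libraries, with a marker shape for each replicate; ligands and antagonists are above the line and receptors below it. Il33 and Il1r1 show red points well to the right of the blue ones, while Il1rap overlaps and Il1rapl1 and Il1rapl2 sit at the floor of the scale.

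In the type 2 and common-chain group the ligands stayed low and several receptors rose. Il13ra1 (a chain of the receptor that binds IL-13 and IL-4) was at 5.34, 4.76 and 4.29 FPKM in the controls and at 30.4, 28.6 and 38.2 FPKM after irradiation. Its mean rose from 4.80 ± 0.530 to 32.4 ± 5.11 FPKM, with a log2 fold change of 2.72 ± 0.16 and adjusted p = 5.8e-05, the smallest adjusted p of all the genes described here. Il2rb (the beta chain shared by the IL-2 and IL-15 receptors) went from 6.44, 5.50 and 7.39 FPKM to 16.9, 19.8 and 15.6 FPKM (1.43 ± 0.17, adjusted p = 0.000436). Il15ra (which presents IL-15 to neighbouring cells) went from 4.98, 4.19 and 5.08 FPKM to 13.4, 13.2 and 18.6 FPKM (1.63 ± 0.18, adjusted p = 0.000373). In all 3 of these receptors the groups were apart. Il3ra (the IL-3 receptor alpha chain) was at 1.72, 2.53 and 2.23 FPKM in the controls and at 4.36, 10.9 and 7.75 FPKM after irradiation (1.70 ± 0.34, adjusted p = 0.00434), and its call was lost with quantile normalization (0.96, adjusted p = 0.062).

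Il21r moved the other way. This receptor for IL-21, a cytokine of helper T cells, was at 43.4, 49.1 and 50.5 FPKM in the controls and at 20.8, 19.7 and 33.8 FPKM after irradiation. The irradiated libraries all lay below the controls, and the log2 fold change was -0.98 ± 0.22 (adjusted p = 0.007). Il4ra (the IL-4 receptor alpha chain) was among the most abundant receptors, at 30.1, 35.3 and 40.5 FPKM in the controls and 33.6, 37.2 and 67.9 FPKM after irradiation. Irradiated replicate 3 alone was above the controls, and the gene did not pass (0.33 ± 0.28, 95% interval -0.33 to 0.98, adjusted p = 0.333). Il9r (the IL-9 receptor) was at 1.75, 1.49 and 2.31 FPKM in the controls and at 0.470, 1.07 and 1.27 FPKM in the irradiated libraries, with no overlap, and did not pass at -0.98 ± 0.40 (adjusted p = 0.064). It passed as lower with both other scalings, at -2.33 with quantile normalization and -1.34 with median-ratio scaling. Il13ra2 (a decoy for IL-13) had overlapping groups and a log2 fold change of 0.56 ± 0.38 (adjusted p = 0.227). Il5ra, the IL-5 receptor alpha chain, was under the filter at 0.343 and 0.469 FPKM.

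Among the matching ligands only Il4 and Il13 could be tested, and neither passed. Il13 was at 1.00, 0.855 and 1.44 FPKM in the controls and at 1.01, 1.94 and 1.88 FPKM after irradiation (0.49 ± 0.35, adjusted p = 0.255), and Il4 was at 0.0963, 0.439 and 0.492 and at 0.675, 0.487 and 1.15 FPKM (1.06 ± 0.57, adjusted p = 0.141). Both had overlapping groups. With quantile normalization Il13 was called lower (-0.92, adjusted p = 0.0401) and Il4 did not pass (-0.59), while without irradiated replicate 1 Il13 was called higher (0.77, adjusted p = 0.0467). Il5, their neighbour on chromosome 11 and the growth factor of eosinophils, was at 0.0583, 0.0280 and 0.102 FPKM in the controls and at 0.234, 0.199 and 0.310 FPKM after irradiation. Its groups were apart, although 27.1% of its exon bases overlap the antisense gene Gm12214, and the use of strand in counting is not given in the sources used here. With the minimum lowered to 0.1 FPKM Il5 passed at 1.11 (limma adjusted p = 0.0366), beside 41.9% of all genes higher and 18.2% lower. The authors' DESeq2 comparison did not call it (adjusted p = 0.0815). Il2 (mean 0.0160 and 0.0839 FPKM), Il9 (listed at 0 in the controls, 0.0849 FPKM after irradiation) and Il21 (0.205 and 0.182 FPKM) stayed under the filter, and Il3 was listed at 0. Beside these values, 4 of 5 tested markers of mast cells and basophils, known producers of IL-4 and IL-13, were higher, against 42.4% of all tested genes. Of these 4, Fcer1a (mean of 0.127 FPKM in the controls) and Tpsb2 (0.317 FPKM) passed the filter only through the irradiated libraries. They could hardly have been called lower, which raises that share. The 7 markers summed to 7.37 to 9.92 against 14.7 to 41.1 FPKM. Cpa3, the most abundant of them in the controls, did not pass (4.53 against 4.77 FPKM, adjusted p = 0.898). Ms4a2 and Mcpt8 were under the filter. Mcpt8 was at 0 in the controls and at 0, 0.0936 and 0.0979 FPKM after irradiation.

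The IL-10 receptor chains were among the clearest increases. Il10ra (the ligand-binding chain for IL-10) was at 5.39, 3.78 and 4.76 FPKM in the controls and at 21.2, 15.7 and 20.6 FPKM after irradiation. Il10rb (the partner chain also used by IL-22 and interferon lambda) was at 8.43, 8.65 and 9.22 FPKM in the controls and at 33.5, 31.5 and 45.3 FPKM after irradiation. The chains rose by nearly the same amount, 2.02 ± 0.19 and 2.04 ± 0.17 on the log2 scale (adjusted p = 0.000201 and 0.000121), and in neither did the groups overlap. Of the exon bases of Il10rb, 14.9% are shared with Gm21970 on the same strand, so its reads cannot be fully assigned. Il20rb (a chain of the IL-20 and IL-24 receptors) passed narrowly, from 2.54, 2.13 and 2.19 FPKM to 3.24, 4.80 and 3.36 FPKM (0.69 ± 0.22, adjusted p = 0.0295). It lost the call in 8 of the 15 alternatives tried, among them the fits without any 1 control and without irradiated replicate 2 (adjusted p = 0.0555 to 0.0976), and was at -0.28 with quantile normalization.

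The ligand Il10 itself, which restrains inflammation, averaged under 0.5 FPKM and was not tested. Its values were 0.0986, 0.0983 and 0.135 FPKM in the controls and 0.568, 0.965 and 1.02 FPKM after irradiation, without overlap. With the minimum lowered to 0.1 FPKM it passed at 2.14 (adjusted p = 0.00189), beside 41.9% of all genes higher and 18.2% lower at that setting. Il22ra1 (the IL-22 receptor of epithelial cells) was at 0, 0.0385 and 0.124 FPKM in the controls and 0.298, 0.669 and 0.241 FPKM after irradiation, and passed at the same lower minimum (1.69, adjusted p = 0.021). Il22ra2 (a soluble trap for IL-22, 0.0236 against 0.115 FPKM) and Il20ra (0.0646 against 0.105 FPKM) were lower still. Il22 (0.121 against 0.251 FPKM), Il19 (0.0653 against 0.210 FPKM) and Il24 (0.0738 against 0.134 FPKM) had overlapping groups, and Il20 was listed at 0.

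In the IL-12 group no ligand passed. Il12b (the p40 subunit shared by IL-12 and IL-23) was at 1.18, 1.82 and 1.68 FPKM in the controls and at 0.623, 4.80 and 5.33 FPKM after irradiation (0.71 ± 0.75, adjusted p = 0.426). Irradiated replicate 1 was below all controls and the other irradiated libraries were above them. Without that library Il12b passed at 1.66 (adjusted p = 0.00071), beside 48.3% of all genes higher and 24.9% lower in that fit. Il23a (the p19 subunit of IL-23) was at 0.428, 0.415 and 0.837 FPKM in the controls and at 1.02, 0.983 and 2.01 FPKM after irradiation, with no overlap, at 1.11 ± 0.42 and adjusted p = 0.0515. It passed with the minimum at 0.1 FPKM (adjusted p = 0.0469), without control replicate 3 (0.0463) and without irradiated replicate 1 (0.0369). Il12a (the p35 subunit of IL-12, 0.45 ± 0.50, adjusted p = 0.459) and Il27 (the p28 subunit of IL-27, 0.66 ± 0.53, adjusted p = 0.298) had overlapping groups. With quantile normalization all 4 turned negative, and Il12a passed as lower (-1.19). Il11 (0.0153 against 0.191 FPKM) was under the filter, and Il31 was listed at 0.

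The receptors of this group went in different directions. Il12rb1 (the chain shared by the IL-12 and IL-23 receptors) fell from 3.16, 3.79 and 5.13 FPKM to 0.942, 2.05 and 1.89 FPKM (-1.30 ± 0.34, adjusted p = 0.0136), a call that leaving out control replicate 3 removed (adjusted p = 0.0588). Its partner Il23r (specific to IL-23) went from 0.893, 0.566 and 0.599 FPKM to 1.19, 1.89 and 1.39 FPKM (1.02 ± 0.32, adjusted p = 0.0282). That call was lost with both other scalings (-0.50 and 0.67) and without control replicate 2 or 3 or irradiated replicate 2 or 3 (adjusted p = 0.0601 to 0.0985). The other partner, Il12rb2 (specific to IL-12), was at 4.25, 3.51 and 3.10 FPKM in the controls and at 2.96, 3.11 and 3.05 FPKM after irradiation, and did not pass (-0.23 ± 0.19, adjusted p = 0.313). However, 40.0% of its exon bases overlap Serbp1 on the opposite strand. With quantile normalization and with median-ratio scaling it passed as lower (-1.20 and -0.61).

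Il27ra (the IL-27 receptor) was at 14.3, 16.9 and 20.0 FPKM in the controls and at 21.3, 10.1 and 13.2 FPKM after irradiation. Irradiated replicate 1 was above all controls and the other irradiated libraries below them, so that the gene did not pass (-0.25 ± 0.28, adjusted p = 0.451). Without that library it passed as lower (-0.55, adjusted p = 0.0306). The 3 identifiers named Il11ra2 belong to near-identical copies of the IL-11 receptor gene, and Il11ra1 is a further copy, so the authors' counting may have split their reads and the values are uncertain. The copy on chromosome 4 (ENSMUSG00000078735) was at 0.0817, 0 and 0.942 FPKM in the controls and at 1.98, 2.10 and 2.31 FPKM after irradiation (3.06 ± 0.82, adjusted p = 0.0145). A copy on an unplaced scaffold (ENSMUSG00000095623) was at 0, 0 and 0.525 FPKM and at 1.25, 1.18 and 1.44 FPKM (2.91 ± 0.76, adjusted p = 0.0131). Both calls were lost with quantile normalization, and that of the copy on chromosome 4 also without control replicate 1 (adjusted p = 0.0538). The third copy was under the filter at 0.374 and 0.501 FPKM, as was Il31ra (the IL-31 receptor, 0.185 and 0.243 FPKM).

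**Figure D3:**
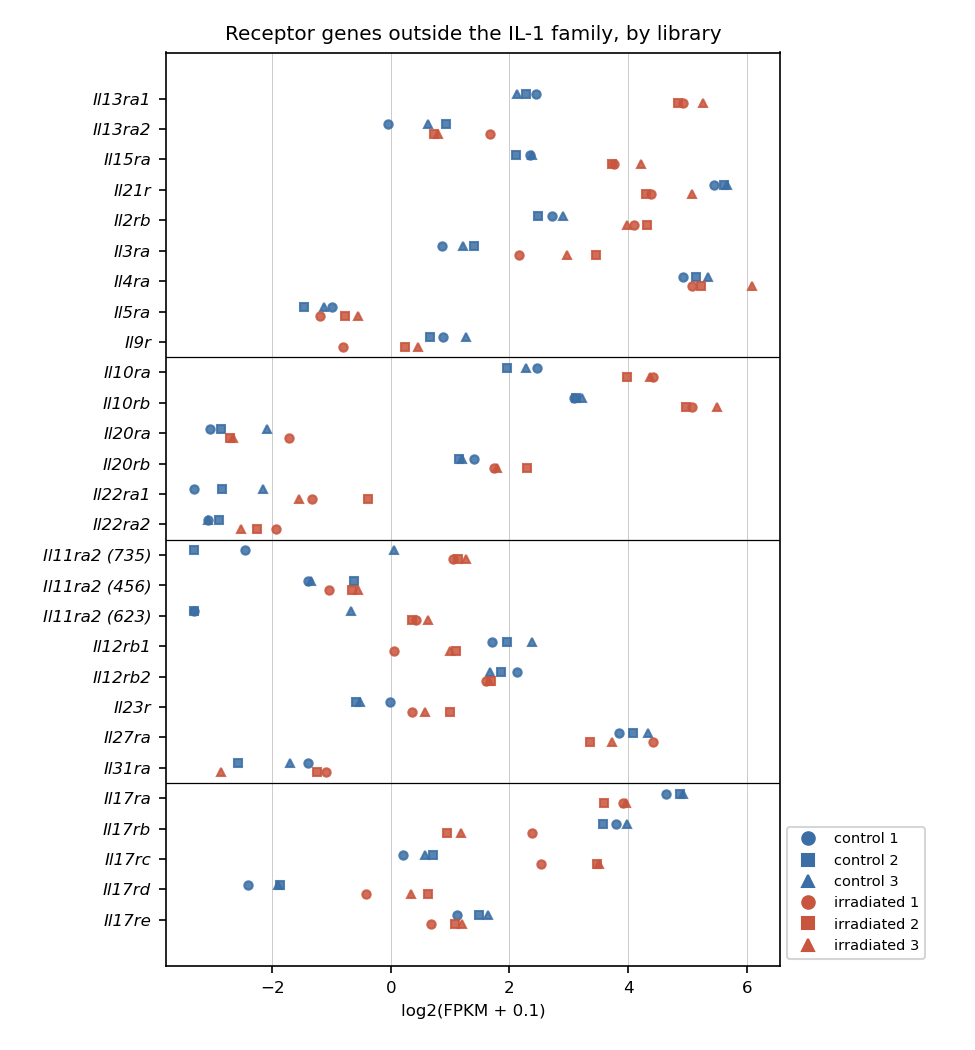
log2(FPKM + 0.1) of the receptor genes outside the IL-1 family in each control (blue) and irradiated (red) library, with a marker shape for each replicate and lines between the type 2 and common-chain, IL-10, IL-12 and IL-17 groups; the 3 Il11ra2 rows carry the last digits of their identifiers. Il13ra1, Il10ra, Il10rb and Il17rc have red points to the right of all blue ones, and Il21r, Il12rb1, Il17ra and Il17rb have them to the left.

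The IL-17 receptors split between rise and fall. Il17ra (the chain common to the receptors of the family) was at 24.7, 29.1 and 30.4 FPKM in the controls and at 14.9, 12.0 and 15.4 FPKM after irradiation. The mean fell from 28.0 ± 3.01 to 14.1 ± 1.85 FPKM, which is -0.99 ± 0.16 on the log2 scale (adjusted p = 0.00145). Il17rb (the receptor chain for IL-25) fell further, from 13.8, 11.8 and 15.6 FPKM to 5.10, 1.83 and 2.17 FPKM (-2.28 ± 0.37, adjusted p = 0.00163). In both genes all irradiated libraries were below all controls. Il17rc (which pairs with Il17ra to bind IL-17A and IL-17F) rose instead, from 1.05, 1.54 and 1.39 FPKM to 5.65, 11.0 and 11.2 FPKM (2.67 ± 0.31, adjusted p = 0.000431). The common chain thus fell while its partner rose. By whole gene values Il17ra still stood above Il17rc after irradiation (means of 14.1 against 9.29 FPKM). Most of the Il17ra signal was listed under noncoding transcripts (given below). How reads shared between transcripts were divided is not given, so that split is uncertain. Outside noncoding transcripts Il17ra averaged 6.46 ± 2.75 FPKM against 1.16 ± 0.349 FPKM for Il17rc in the controls. After irradiation the values were 1.56 ± 0.239 against 9.17 ± 3.07 FPKM, the reverse order under that split. Il17rd (a further member of the family) was at 0.0888, 0.173 and 0.168 FPKM in the controls and at 0.651, 1.45 and 1.16 FPKM after irradiation (2.24 ± 0.45, adjusted p = 0.0043), and lost its call with quantile normalization (0.56). Il17re (the partner chain for IL-17C) did not pass at -0.43 ± 0.25 (adjusted p = 0.172), but passed as lower with quantile normalization (-1.58) and median-ratio scaling (-0.80).

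All 5 IL-17 ligands were under 0.6 FPKM in every library and were not tested. Il17d, the most abundant after irradiation, was at 0.243, 0.119 and 0.126 FPKM in the controls and at 0.524, 0.550 and 0.452 FPKM after irradiation, without overlap. With the minimum lowered to 0.1 FPKM Il17d passed at 1.24 (limma adjusted p = 0.018), beside 41.9% of all genes higher and 18.2% lower. The authors' DESeq2 comparison did not call it (adjusted p = 0.108). Il17a was listed at 0 in the controls and at 0.0694, 0.0334 and 0.0681 FPKM after irradiation, which is under the level of 3 fragments in 1 kb. Il17c went from 0.236, 0.179 and 0.138 FPKM to 0.0565, 0.107 and 0.0569 FPKM, also without overlap, and Il17b and Il17f had overlapping groups. Beside these values, of the 6 markers of innate lymphoid and NK cells only Gzma was called, as lower (-2.40 ± 0.49, adjusted p = 0.00472), and it makes up most of their sum (35.04 to 48.8 against 9.65 to 23.1 FPKM). Klrb1c did not pass (1.97 against 3.55 FPKM), and Ncr1 (0.0736 against 0.858 FPKM), Eomes, Klrg1 and Areg were under the filter with higher means after irradiation. Of the tuft cell markers, 4 of 5 were higher (4.43 to 6.26 against 18.3 to 22.7 FPKM), beside 42.4% of all tested genes. Of these 4, Pou2f3 (mean of 0.158 FPKM in the controls) passed the filter only through the irradiated libraries. Gnat3 did not pass (1.72 against 2.87 FPKM, limma adjusted p = 0.269).

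Il16 was the most abundant of these genes in the controls and fell sharply. Its product, pro-IL-16, is cut to release a ligand of CD4 and is made by lymphocytes. It was at 74.1, 81.9 and 74.7 FPKM in the controls and at 21.3, 17.1 and 18.1 FPKM after irradiation. The mean fell from 76.9 ± 4.34 to 18.8 ± 2.24 FPKM (-2.03 ± 0.14, adjusted p = 7.0e-05), in the same libraries in which 7 of 7 thymocyte markers were lower. Of its exon bases, 15.3% overlap Stard5 on the opposite strand. Il34 (a second ligand of the CSF1 receptor, which keeps macrophages alive) rose from 1.17, 2.23 and 1.99 FPKM to 8.0, 5.05 and 4.87 FPKM (1.69 ± 0.31, adjusted p = 0.00291), and its call was lost with quantile normalization (0.81, adjusted p = 0.0863). Il4i1 is an enzyme that oxidises amino acids and no interleukin. It was at 4.86, 7.34 and 7.71 FPKM in the controls and at 7.58, 14.6 and 18.3 FPKM after irradiation, with overlapping groups, and passed narrowly (0.95 ± 0.35, adjusted p = 0.0451). Its value is uncertain, because 83.9% of its exon bases overlap Tbc1d17 on the opposite strand, and its call was lost in 9 of the 15 alternatives, among them every fit that left out 1 library except irradiated replicate 1 (adjusted p = 0.0722 to 0.147).

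**Figure D4:**
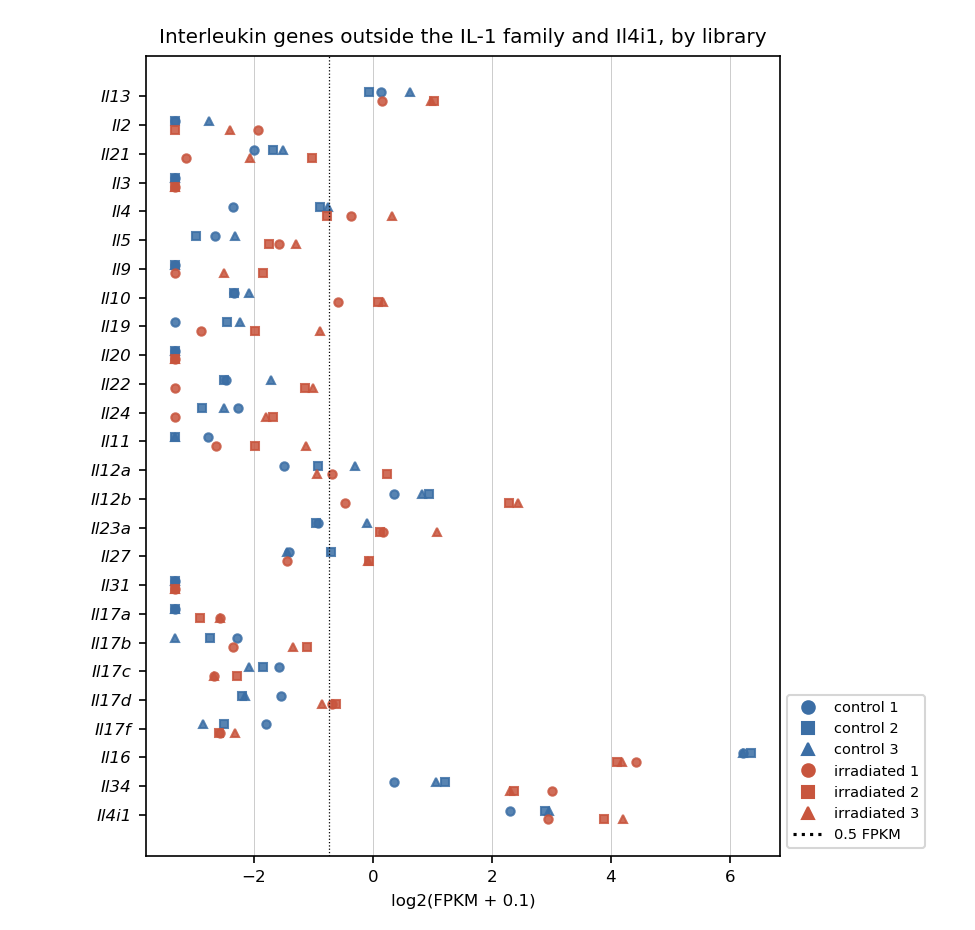
log2(FPKM + 0.1) of the interleukin genes outside the IL-1 family, and of Il16, Il34 and Il4i1, in each control (blue) and irradiated (red) library; the dotted line marks 0.5 FPKM. Il16 stands alone at the right, at 74.1 to 81.9 FPKM in the controls and 17.1 to 21.3 FPKM after irradiation, and most of the other genes lie left of the dotted line.

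Part of the FPKM of a gene came from transcripts that encode no protein. The lncRNA table lists 64 noncoding transcripts (39 retained introns and 25 processed transcripts) of 32 of the genes described here. Across the 12534 genes in both tables, the summed noncoding FPKM never exceeded the gene's FPKM in the mRNA table by more than 0.1% in any of 62368 pairs of a gene and a library with noncoding signal, so the gene value contains the noncoding part. Of the genes described here, 18 could be tested in the lncRNA table, and 8 were higher and 4 lower, against 15.8% and 30.1% of its 9421 tested genes. The 4 lower ones, Il16, Il17ra, Il17rb and Il12rb1, were also lower as genes.

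Of the 24 genes that averaged at least 1 FPKM and have noncoding transcripts, 3 drew over 50% of their FPKM from noncoding transcripts in every library, namely Il17ra, Il15ra and Il4i1. In Il17ra the noncoding part was 78.2%, 84.8% and 68.5% in the controls and 89.7%, 88.9% and 88.3% after irradiation, nearly all of it from 1 retained intron transcript. The rest of the gene was at 5.37, 4.41 and 9.59 FPKM in the controls and at 1.53, 1.33 and 1.80 FPKM after irradiation. With noncoding transcripts subtracted the log2 fold change of Il17ra was -1.92 ± 0.31 (adjusted p = 0.00215), against -0.99 for the gene value. In Il15ra the noncoding part went from 76.2% ± 6.47 to 62.6% ± 3.34 (SD, n = 3), and the rest rose from 1.15 ± 0.389 to 5.62 ± 1.18 FPKM (subtracted log2 fold change 2.23 ± 0.30, adjusted p = 0.00098). By this split both changes were larger outside the noncoding transcripts. How reads shared between transcripts of a gene were divided is not given in the sources used here, so the split is uncertain.

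In Il16 the noncoding part was 36.1% ± 2.74 in the controls and 25.2% ± 6.94 after irradiation, and the rest still fell (-1.81 ± 0.13, adjusted p = 0.000124). The noncoding part of Il17rb also fell (-2.21, adjusted p = 0.00394), close to the change of the gene. In Il12a all of the signal in the irradiated libraries was noncoding, with the rest at 0 FPKM. Among the controls the noncoding part was 0%, 99.5% and 96.5% in replicates 1, 2 and 3. The gene was at 0.257, 0.429 and 0.714 FPKM in these libraries, so the split was unstable at this low level. In Il20rb control replicates 1, 2 and 3 were 99.9%, 61.5% and 56.15% noncoding. The gene did not pass with noncoding transcripts subtracted (1.54 ± 0.89, adjusted p = 0.173). Il4ra went from 28.7 ± 4.03 to 41.9 ± 17.7 FPKM outside its noncoding transcripts, which did not pass either (0.48 ± 0.29, adjusted p = 0.191). Over all 41 genes that could be tested after subtraction, 23 were higher and 5 lower, against 43.4% and 16.9% of all genes.

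**Figure D5:**
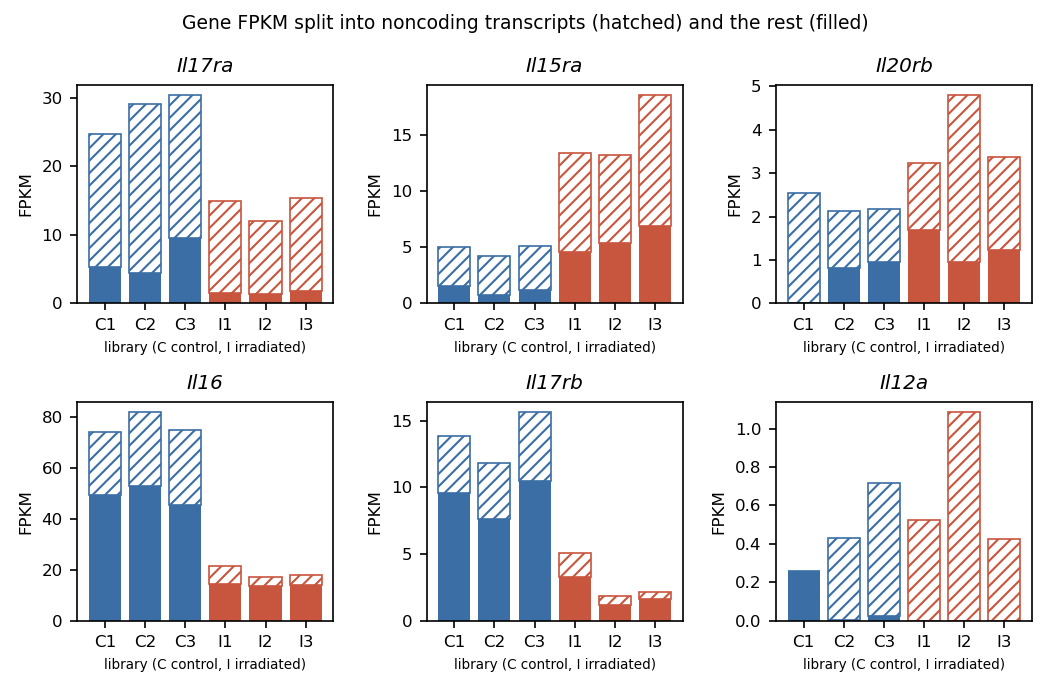
FPKM of 6 genes in each control (C, blue) and irradiated (I, red) library, split into noncoding transcripts (hatched) and the rest of the gene (filled); bars start at 0 and the scales differ between panels. The filled part of Il17ra falls from 5.37, 4.41 and 9.59 FPKM to 1.53, 1.33 and 1.80 FPKM, and Il12a has no filled part after irradiation.

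Genes that act around these receptors were counted from fixed lists of 43 genes, of which 42 were tested, with 29 higher (69.0%) and 3 lower (7.14%) and a median log2 fold change of 1.53, beside 42.4% higher and 20.9% lower of all tested genes. Of the higher genes, Cxcl1, Cxcl2, Cxcl5, Arg1 and Fut2, named below, passed the filter only through the irradiated libraries, which raises the higher share. Of 11 adaptors of the IL-1 and IL-18 receptors 5 were higher (45.5%) and 2 lower (18.2%), near that background. Irak2 (a kinase of the MyD88 complex) went from 3.01 ± 0.0688 to 13.8 ± 2.12 FPKM (2.15 ± 0.17, adjusted p = 0.000109), Irak3 (an inhibitory relative) from 0.639 ± 0.0965 to 5.15 ± 0.513 FPKM (2.83 ± 0.23, adjusted p = 0.000115) and Irak1 from 10.5 ± 0.777 to 21.4 ± 1.22 FPKM (1.03 ± 0.13, adjusted p = 0.000552). The lower ones were Traf6 (-0.48 ± 0.12, adjusted p = 0.0117), the ubiquitin ligase downstream of the IRAK kinases, and Tab1 (-0.45 ± 0.17, adjusted p = 0.0472), of which 1 call was lost without control replicate 1 or 2 or irradiated replicate 2 or 3, and both without control replicate 3. The others, Map3k7, Tab2, Tab3 and Tollip, did not pass. With quantile normalization and with median-ratio scaling 5 adaptors were higher and 4 lower. The IL-17 adaptors and regulators were all 4 higher, led by Traf5 (0.91 ± 0.18, adjusted p = 0.00363), Traf3ip2 (Act1, 0.97 ± 0.19, adjusted p = 0.00393) and Nfkbiz (0.67 ± 0.14, adjusted p = 0.00535), and none of the 4 passed with quantile normalization. Of the Janus kinases, Jak3 (1.41 ± 0.16, adjusted p = 0.000363) and Tyk2 (0.74 ± 0.17, adjusted p = 0.007) were higher, and Jak2 (0.26 ± 0.14, adjusted p = 0.147) and Jak1 did not pass. With median-ratio scaling 1 Janus kinase was higher and 1 lower.

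Among 5 shared and neighbouring receptor chains, Csf2rb (the common beta chain of the IL-3, IL-5 and GM-CSF receptors) rose from 2.35 ± 0.127 to 15.7 ± 7.82 FPKM (2.53 ± 0.41, adjusted p = 0.00161), its relative Csf2rb2 from 1.29 ± 0.0107 to 13.4 ± 6.19 FPKM (3.15 ± 0.38, adjusted p = 0.000484) and Csf2ra from 3.81 ± 0.680 to 17.8 ± 4.14 FPKM (2.18 ± 0.23, adjusted p = 0.000267). Sigirr, an inhibitory receptor of the IL-1 family, was lower (-0.82 ± 0.24, adjusted p = 0.0217), a call lost without control replicate 1 or 3 and without irradiated replicate 2 or 3. Of 7 tested genes known to be induced by IL-1 and IL-17, 6 were higher, beside 42.4% higher and 20.9% lower of all tested genes. Of these 6, Cxcl1, Cxcl2 and Cxcl5 averaged under 0.5 FPKM in the controls (0.348, 0.254 and 0.0903 FPKM). They passed the filter only through the irradiated libraries and could hardly have been called lower. Lcn2 (lipocalin 2, an iron-binding defence protein) was at 1.57, 2.50 and 2.20 FPKM in the controls and at 39.6, 108 and 219.6 FPKM after irradiation (5.51 ± 0.57, adjusted p = 0.00026). Cxcl1, a chemokine for neutrophils (2.55 ± 0.41, adjusted p = 0.00162), and Saa3, an acute-phase protein (4.78 ± 0.83, adjusted p = 0.00221), rose with it, and Ccl20 did not pass. Of 8 genes known to be induced by IL-4 and IL-13, 5 were higher, beside the same shares of all tested genes. Mrc1 (1.93 ± 0.18, adjusted p = 0.00018), Clec10a (2.67 ± 0.32, adjusted p = 0.000509) and Arg1 (4.45 ± 0.87, adjusted p = 0.00386) had the smallest adjusted p. Arg1, at a mean of 0.226 FPKM in the controls, passed the filter only through the irradiated libraries. Mrc1 is also 1 of the 7 macrophage markers, all of which were higher. All 3 genes known to be induced by IL-22, Reg3g (3.32 ± 0.53, adjusted p = 0.00158), Fut2 (2.59 ± 0.36, adjusted p = 0.000903) and Reg3b (1.65 ± 0.45, adjusted p = 0.0156), were higher, against 42.4% of all tested genes. Fut2, at a mean of 0.174 FPKM in the controls, also passed the filter only through the irradiated libraries. In irradiated replicates 1, 2 and 3 Reg3g was at 75.15, 259.6 and 58.4 FPKM and Reg3b at 17.7, 4.91 and 6.68 FPKM. The count of this list fell to 2 of 3 with quantile normalization, and also without control replicate 1. With quantile normalization the counts of higher genes fell to 3 of 7 for the IL-1 and IL-17 list and to 3 of 8 for the IL-4 and IL-13 list. The latter was also at 3 of 8 with median-ratio scaling and without control replicate 1, 2 or 3 or irradiated replicate 3, and at 7 of 8 without irradiated replicate 1.

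The authors' deposited table of their own comparison, made with DESeq2, called 22 of the 26 higher genes higher and all 5 lower genes lower at its adjusted p under 0.05, beside 32.5% higher and 14.0% lower of its 19142 genes with an adjusted p. The authors' deposited table did not call Il20rb (log2 fold change 0.52, adjusted p = 0.357), Il23r (0.86, adjusted p = 0.168), Il4i1 (0.84, adjusted p = 0.115) or the Il11ra2 copy on the unplaced scaffold (2.71, adjusted p = 0.0508). The authors' deposited table in addition called Il1f5, Il10, Il22ra1 and Il11 higher and Il9r lower (-1.39, adjusted p = 0.0285), and its value for Il10 was 2.66 (adjusted p = 0.000258).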

How the data were processed

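Polyadenylated RNA of 3 control and 3 irradiated thymus samples was compared, grouped by the labels. The authors deposited FPKM values for genes (mRNA table) and noncoding transcripts (lncRNA table), and their own log2 fold change and adjusted p-values, for which the submitters' processing notes name DESeq2 1.10.1. The aligner, the counter, the build and any use of strand do not appear in the labels or file headers used here. Of 58693 Ensembl transcripts of the mRNA table found in GENCODE M21 (GRCm38), 99.8% have the same start and end, so coordinates are given on GRCm38.

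The mRNA table repeats 1 value per gene on each of its 59179 lines, and 1 was used. Noncoding FPKM were summed per gene, and 62 lines without values were dropped. Depth was estimated from the smallest steps of FPKM times length. The design named a count test for counts and limma for FPKM, and the second was used (limma 3.58.1, R 4.3.3) with a pseudocount of 0.1, a minimum mean of 0.5 FPKM, an abundance trend and Benjamini-Hochberg adjustment within each table. The code was tested on simulated data. The members and lists were chosen with earlier results of these data known. Genes given with library values had adjusted p under 0.05, groups apart and at least 1 FPKM in the higher group, or at least 5 FPKM in either group, and in pathway lists the 3 smallest adjusted p. Others are named for how their values compare, after these were seen. Alternatives covered the pseudocount, the filter, 2 scalings, a replicate block and leaving out each library, and subtraction of noncoding transcripts was added after seeing the data. Exon overlaps were counted in GENCODE M21, and upstream windows came from RefSeq (GRCm38.p6), with 14 symbols unmatched.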

Additional observations from a re-analysis of the deposited data

How the results depend on the processing

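Of the 31 calls, 17 held in all 15 alternatives and 14 were lost in at least 1, most under quantile normalization. That setting gave 13 higher and 10 lower genes in place of 26 and 5, and 18 higher and 5 lower genes in the pathway lists in place of 29 and 3. Median-ratio scaling gave 8 lower genes and 6 lower pathway genes. Leaving out 1 library gave 21 to 31 higher and 4 to 6 lower genes, beside 34.8% to 48.3% and 15.2% to 24.9% of all genes. The count of 31 came without irradiated replicate 1, where 48.3% of all genes were higher. Noncoding parts then gave 2 to 6 higher and 2 to 4 lower in place of 8 and 4, and the pathway lists 24 to 31 higher and 0 to 4 lower. The noncoding count of 2 higher came without irradiated replicate 3 and that of 3 without control replicate 1. The cause was not tested. Log2 fold changes that turned negative with quantile normalization were those of Il12a (-1.19), Il12b (-0.34), Il13 (-0.92), Il13ra2 (-0.80), Il1rap (-0.42), Il20rb (-0.28), Il23a (-0.44), Il23r (-0.50), Il27 (-0.97) and Il4 (-0.59). With median-ratio scaling Il4ra turned to -0.0587. Of these only Il20rb and Il23r had been called. The values gave no sign that replicate numbers pair the samples. Correlations of same-numbered deviations were 0.06, -0.04 and 0.05, and not every sample correlated best with its own number. This does not settle whether the samples were paired. With the replicate number as a block 26 genes were higher and 5 lower, beside 40.7% and 19.0% of all genes, with Il20rb and Il23r not called and Il1f5 and Il23a called. Depth limits the genes under 0.5 FPKM, where 3 fragments in 1 kb already give 0.115 to 0.133 FPKM.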
